A study of Mus musculus with 4 samples.

Results

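Collagen genes were taken from the array annotation of the mouse salivary gland as every gene whose symbol begins with Col, followed by a type number, the letter a and a chain number. The rule gave 44 genes, each measured by 1 transcript cluster of 10 probes, of 22206 transcript clusters (the probe groups that stand for a gene's transcripts) on the array. All 44 are described, and none was removed for a low value. The arrays compared the glands of female mice without IκB-ζ (Nfkbiz-/-) with those of mice with both copies of the gene (Nfkbiz+/+). Each genotype had 2 mice aged 20 weeks, M47 and M49 (Nfkbiz-/-) and M30 and M55 (Nfkbiz+/+), with 1 array per mouse, and no treatment is given in the labels. The parotid, sublingual and submandibular glands of a mouse were harvested, with part of the tissue used for histology and the rest for RNA. The mice were housed only with their own genotype after weaning and were not all littermates. The deletion is constitutive, so every cell type of the gland lacks the gene in the Nfkbiz-/- mice, and the labels give a strain for M47 alone, ICR, which conflicts with the mixed background of other strains that the study's methods describe for the colony. Whether M47 differs in strain from the other mice cannot be told from these sources. All values are log2 RMA values, the background-corrected and quantile-normalised array signal on a log2 scale, and all differences are Nfkbiz-/- minus Nfkbiz+/+.

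Collagens are secreted or membrane-bound proteins whose chains wind around each other in threes into a long helix, from which the fibres and sheets of the extracellular matrix are built. Fibrillar collagens such as types I and III form the stromal fibres that hold acini and ducts together, and type IV forms the mesh of the basement membrane under every epithelium, vessel and nerve. Network collagens form hexagonal lattices, FACIT collagens sit on the surface of fibrils and link them to other matrix, and type VI forms beaded filaments around cells. Fibroblasts make most of the fibrillar collagen of a gland, while epithelial and endothelial cells contribute basement membrane chains. In RNA from gland tissue, fewer cells of a type and less RNA per cell cannot be told apart.

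The arrays were alike in their overall signal, with medians between 4.83 and 4.89, and collagen medians of 5.39 (M47), 5.44 (M49), 5.55 (M30) and 5.46 (M55). Across the 44 collagens the array values correlated at 0.978 within the Nfkbiz-/- genotype, 0.955 within Nfkbiz+/+ and 0.952 to 0.964 across genotypes, where all clusters gave 0.981, 0.971 and 0.969 to 0.974. The salivary gland markers measured (8 of 10) lay above the upper quartile of every array, and 0 were called. They were not all even between mice, since Amy1 read 10.9 in M55 and 12.9 in each other mouse (difference 0.96, SE 0.55). The targeted gene did not check the genotypes, since the position of its probes within the gene was not given. Nfkbiz read 6.18 in M47 and 5.78 in M49, beside 5.04 in M30 and 7.29 in M55, with the knockout values between those of the wild-type mice (difference -0.18, SE 0.62, limma adjusted p = 0.961). Markers of fat, muscle and red cells differed between mice, with 4 of 8 fat cell genes, 3 of 8 skeletal muscle genes and 4 of 6 erythroid genes called lower in Nfkbiz-/- glands and 0 higher (50%, 37.5% and 66.7%, where 6.62% of all clusters were called). Without M47 the fat cell count was 1, without M30 it was 7, and the muscle count was 7 without M30 and 0 without any other mouse, while the erythroid count was 4 or 5 throughout. In the order M47, M49, M30, M55, the log2 of the summed signal was 6.90, 7.08, 7.47 and 9.66 for the fat cell genes, 6.79, 6.87, 6.90 and 8.56 for the muscle genes and 8.28, 9.53, 12.3 and 11.7 for the erythroid genes. Fat and muscle signal was thus high in M55 and erythroid signal high in both Nfkbiz+/+ mice. The part of these, or of the low Amy1 of M55, in any collagen value was not tested. Hba-a1 and Hba-a2 had identical values in the same order of mice (5.92, 7.20, 9.89 and 9.42). The erythroid counts and sums therefore hold 1 measurement 2 times.

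Few collagen genes passed the test between genotypes. With limma, 2 of the 44 passed the thresholds of the study (at least 1.5-fold, with an unadjusted p under 0.05), both higher in Nfkbiz-/- glands, and 0 were lower. These were Col5a2, a chain of the type V fibrils that set fibre diameter, and Col6a6, a chain of the beaded filaments of type VI. The 2 genes are 4.55% of the collagens, against 6.62% of all clusters called (2.93% higher and 3.69% lower), so the collagens were not called more often than the array as a whole. At an unadjusted p under 0.05 alone, 4 collagens (Col1a2, Col5a2, Col6a6 and Col4a6) were found, 9.09% of the list against 9.07% of all clusters. After Benjamini-Hochberg adjustment over all clusters 0 collagens and 0 clusters of the array had an adjusted p under 0.05, and the smallest among the collagens was 0.520. The methods' t-test with equal variances found 4 collagens at an unadjusted p under 0.05 (9.09%, against 7.06% of all clusters). These were Col3a1, Col4a5, Col4a6 and Col22a1, so Col4a6 alone was shared with limma. With unequal variances it found 2, Col4a6 and Col22a1 (4.55%, against 3.32%). With the fold threshold added, both versions found 0 (2.14% and 0.955% of all clusters).

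The number of collagens called moved with the mice. Without M47 it was 1 (Col6a6, with 5.05% of all clusters called) and without M49 it was 0 (5.08%). Without M30 the called collagens were 3, namely Col5a2, Col6a6 and Col23a1 (12.1% of all clusters), and without M55 they were 2, Col1a2 and Col6a2 (8.93%). All of these were higher in Nfkbiz-/- glands. At a 2-fold threshold (0.901% of all clusters) and among clusters above the median signal (8.11%) 0 collagens were called. An intensity trend in limma, a repeated quantile normalization, centring on the array median and 1 cluster per gene each called 2, with 6.71%, 6.69%, 6.56% and 6.61% of the clusters tested.

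The estimated differences were small. The median log2 difference of the 44 collagens was -0.05, beside -0.02 over all clusters, and single genes ranged from -0.49 (Col4a6) to 0.63 (Col5a2), with 18 above 0 and 26 below. Mice of different genotype did not overlap in 18 collagens (40.9%, 10 higher and 8 lower in Nfkbiz-/- mice), beside 39.7% of all clusters (18.2% higher and 21.5% lower). The difference between genotypes exceeded both differences between mice of 1 genotype for 13 collagens, 29.5% of them, against 27.3% of all clusters. For 40 of the 44 the 95% interval lay within 2-fold in either direction, but for only 7 did it lie within 1.5-fold, so with 2 mice per genotype a change of 1.5-fold lay inside the interval of most collagens.

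**Figure D1:**
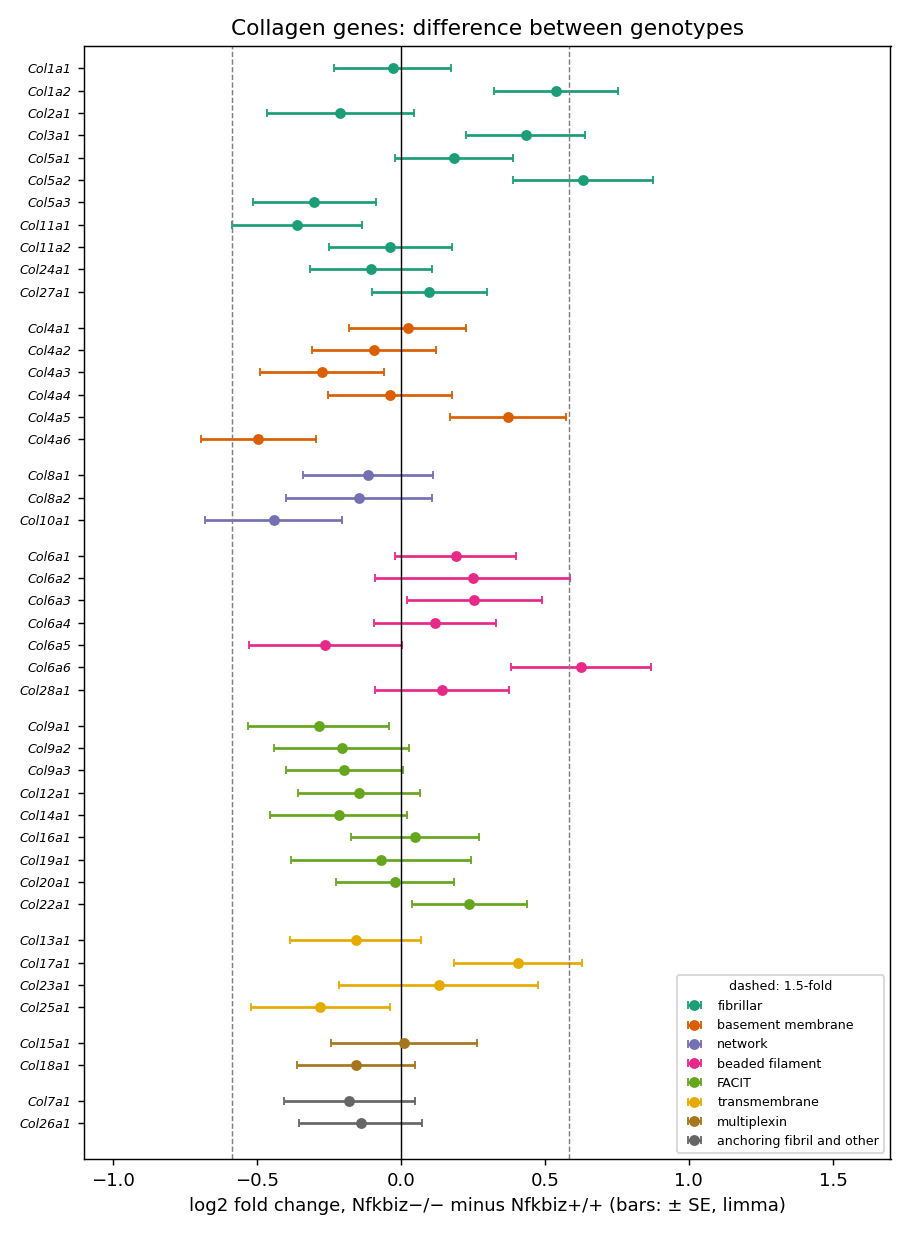
Log2 difference (Nfkbiz-/- minus Nfkbiz+/+, x axis) of each of the 44 collagen genes, grouped by structural class on the y axis, with points for the limma estimate, bars for 1 SE on either side and dashed lines at 1.5-fold. Col5a2 (0.63) and Col6a6 (0.62) lie past the upper dashed line, and Col4a6 (-0.49) lies lowest.

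Among the 11 fibrillar collagens, Col1a2, Col3a1, Col5a1 and Col5a2, chains of the common stromal fibres, had higher values in both Nfkbiz-/- mice than in either Nfkbiz+/+ mouse, and Col5a2 alone was called. Col1a1 overlapped between genotypes. Col5a2 was 4.61 in M47 and 4.39 in M49, against 4.12 in M30 and 3.62 in M55. All its knockout values lay above the wild-type values, and M55 was the lowest mouse (difference 0.63, SE 0.24, 1.55-fold, limma adjusted p = 0.520). The call rested on single mice, since the difference was 0.52 without M47, 0.74 without M49 and 0.38 without M55, none of them called, and 0.88 without M30, which was called. The partner chain of Col5a2 in type V collagen, Col5a1, was 3.94 in M47 and 3.83 in M49, against 3.62 in M30 and 3.78 in M55. Its groups did not overlap either, but its difference was not called.

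Type I collagen, the main fibre of connective tissue, is built from Col1a1 and Col1a2 chains. Col1a2 was 6.35 in M47 and 6.28 in M49, against 5.62 in M30 and 5.93 in M55. Both knockout values lay above both wild-type values (difference 0.54, SE 0.22, 1.45-fold, limma adjusted p = 0.522), and the fold change stayed below the 1.5-fold threshold except without M55, where the difference was 0.69. Col1a1 was 6.05, 6.15, 6.16 and 6.09 in the same order of mice, with overlapping groups and a difference of -0.03 (95% interval -0.50 to 0.44). The estimates for these chains of 1 protein thus differed, and their ratio within each mouse is given with the other chain pairs. Col3a1, the chain of the thin type III fibres that accompany type I, was 5.75 in M47 and 5.81 in M49, and 5.25 in M30 and 5.44 in M55. Again both knockout mice were above both wild-type mice, without passing the test (difference 0.43, SE 0.21, limma adjusted p = 0.584).

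Col1a2 and Col3a1 were read in the same direction, and the stretch of genome before each gene's first RefSeq start is shown to compare them. The sequences are those of RefSeq on GRCm38.p6, written in the direction of the gene, Col1a2 from chr6:4505368-4505617 and Col3a1 from chr1:45311288-45311537, both on the plus strand. Capitals mark the letters CCAAT or the letters TATAAA or GGGCGG, searched on both strands, and no matches overlapped in the windows printed.
Col1a2: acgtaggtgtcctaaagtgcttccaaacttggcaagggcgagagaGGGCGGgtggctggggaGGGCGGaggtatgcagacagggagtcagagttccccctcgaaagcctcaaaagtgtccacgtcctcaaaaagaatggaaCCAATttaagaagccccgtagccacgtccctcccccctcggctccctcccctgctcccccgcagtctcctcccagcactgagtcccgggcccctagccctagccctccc
Col3a1: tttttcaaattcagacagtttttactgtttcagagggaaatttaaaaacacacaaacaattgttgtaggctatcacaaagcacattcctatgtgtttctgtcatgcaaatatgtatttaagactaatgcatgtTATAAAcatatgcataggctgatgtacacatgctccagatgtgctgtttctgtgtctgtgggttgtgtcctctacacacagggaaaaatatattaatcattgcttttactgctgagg
The Col1a2 window held CCAAT 1 time and GGGCGG 2 times and no TATAAA, whereas that of Col3a1 held TATAAA 1 time and neither of the others. Of 32851 RefSeq promoter windows cut to the same 250 bases, 33.8% held CCAAT, 12.4% TATAAA and 32.7% GGGCGG. The windows of these genes with similar differences thus shared none of the 3 motifs searched, and the matches are a description of letters only. Promoter windows were matched for 35 of the 44 collagens.

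The other fibrillar collagens included the cartilage types II and XI and the minor types XXIV and XXVII. Col11a2, the fibrillar gene with the highest mean signal, was 6.62 in M47 and 6.68 in M49, compared with 6.83 in M30 and 6.54 in M55, with the knockout values inside the wild-type range. Col5a3 (-0.30) and Col11a1 (-0.36) were the 2 fibrillar genes with lower values in both Nfkbiz-/- mice, and Col27a1 (0.10) had higher values in both, none of them called. Col2a1 (-0.21), the main fibril chain of cartilage, overlapped between genotypes, and 0 of 7 cartilage and bone markers were called (against 6.62% of all clusters). Col24a1 (-0.10) lay below the lower quartile of the signal on all 4 arrays, as did Col4a3 and Col10a1 among the other classes, so little can be read from these 3 genes. Over the fibrillar class the median difference was -0.03, with 5 genes above 0 and 6 below. Of the 11 genes 1 was called (9.09%, against 6.62% of all clusters) and 7 did not overlap between genotypes (63.6%, against 39.7%).

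**Figure D2:**
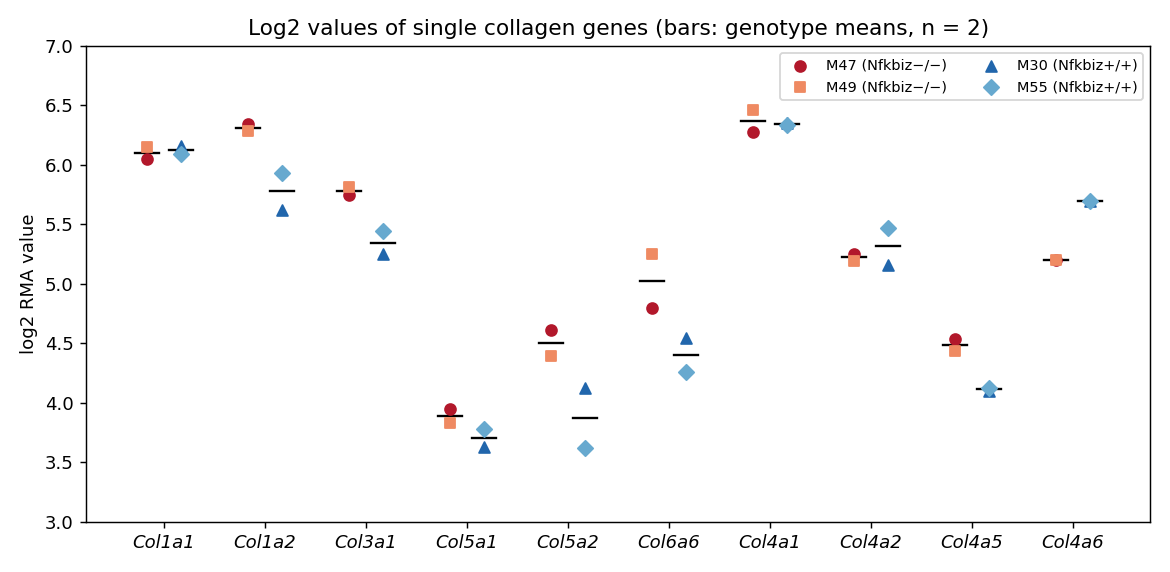
Log2 RMA value (y axis) of selected collagen genes in each of the 4 mice, with points for single mice and a line at the mean of each genotype. Col5a2, Col6a6, Col1a2 and Col3a1 show both Nfkbiz-/- mice above both Nfkbiz+/+ mice, and Col4a6 shows the reverse.

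Basement membrane collagen consists of type IV chains in fixed combinations, of which Col4a1 with Col4a2 is the ubiquitous one. Col4a1 was 6.28 in M47 and 6.46 in M49, against 6.35 in M30 and 6.34 in M55. Col4a2 was 5.25, 5.19, 5.16 and 5.47 in the same order. For both chains the genotypes overlapped, with a difference of 0.02 for Col4a1 (95% interval -0.45 to 0.50) and -0.09 for Col4a2 (-0.59 to 0.41). The interval of Col4a1 lay within 1.5-fold in both directions, and that of Col4a2 reached just past it on the lower side.

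The X-linked chains Col4a5 and Col4a6, which join in the basement membrane of several epithelia and of smooth muscle, lay in opposite directions. Col4a6 was 5.20 in M47 and 5.20 in M49, against 5.70 in M30 and 5.70 in M55. The 2 mice of each genotype were the same to 2 decimals and the genotypes did not overlap (difference -0.49, SE 0.20, 1.41-fold lower, limma adjusted p = 0.522). At 1.41-fold it was under the 1.5-fold threshold and so was called by none of the tests. Its adjusted p did depend on the test, at 0.0196 for the t-test with equal variances and 0.213 with unequal variances. Col4a5 was 4.54 in M47 and 4.44 in M49, beside 4.10 in M30 and 4.13 in M55. Here both Nfkbiz-/- values were the higher ones, with a difference that was not called (0.37, SE 0.20, limma adjusted p = 0.625).

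Col4a5 and Col4a6 lie head to head on the X chromosome, 1.31 kb apart in the array annotation, and the sequence before the start of each is shown because both genes are read outward from the region between them. From RefSeq on GRCm38.p6, Col4a5 is read from the plus strand at chrX:141475169-141475369 and Col4a6 from the minus strand at chrX:141474096-141474326, with capitals as above.
Col4a5: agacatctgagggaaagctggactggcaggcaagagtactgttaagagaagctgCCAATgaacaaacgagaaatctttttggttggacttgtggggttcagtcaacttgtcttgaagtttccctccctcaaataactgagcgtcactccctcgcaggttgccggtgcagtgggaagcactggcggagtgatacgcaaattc
Col4a6: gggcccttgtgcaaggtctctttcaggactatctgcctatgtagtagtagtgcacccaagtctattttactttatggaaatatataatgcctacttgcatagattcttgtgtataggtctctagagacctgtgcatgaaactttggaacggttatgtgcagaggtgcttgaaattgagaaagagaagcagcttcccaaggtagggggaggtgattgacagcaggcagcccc
CCAAT was found 1 time before Col4a5, as in 28.6% of all windows of that length, and TATAAA and GGGCGG were not found there (9.18% and 24.8% of windows). None of the 3 motifs was in the window of Col4a6, whereas 32.3% of windows of its length held CCAAT, while 11.8% held TATAAA and 30% held GGGCGG.

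The remaining type IV chains, Col4a3 and Col4a4, belong with Col4a5 to the basement membrane known best from the kidney glomerulus. Col4a3 was 2.99 in M47 and 2.69 in M49, and 3.11 in M30 and 3.11 in M55, all dim values. Col4a4 was 5.72, 5.44, 5.70 and 5.54 in the same order, with overlapping groups. Over the 6 basement membrane genes the median difference was -0.06, with 0 called (against 6.62% of all clusters). The genotypes did not overlap for Col4a5 (higher) and for Col4a3 and Col4a6 (lower), 50% of the class against 39.7% of all clusters.

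The network collagens Col8a1, Col8a2 and Col10a1 all had differences below 0, with a median of -0.15 and 0 called (against 6.62% of all clusters). Types VIII and X make the hexagonal lattices of the subendothelial matrix and of hypertrophic cartilage. Col8a2 was 6.77 in M47 and 6.89 in M49, compared with 7.28 in M30 and 6.68 in M55, and both Nfkbiz-/- values fell between the wild-type values. Col8a1 (-0.11) lies on chromosome 16, 1.79 Mb from the targeted gene, and it too overlapped between genotypes, with 4.53, 4.64, 4.49 and 4.90 in M47, M49, M30 and M55. Col10a1 (-0.44) was lower in both Nfkbiz-/- mice and dim in all 4.

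The beaded filament collagens had the highest class median, 0.19, with 6 of 7 genes above 0 and 1 called (14.3%, against 6.62% of all clusters). Of all 22206 clusters, 10417 were above 0 and 11789 below. In 2 of the 7 genes the genotypes did not overlap (28.6%, against 39.7% of all clusters). Col6a6 was 4.80 in M47 and 5.25 in M49, against 4.54 in M30 and 4.26 in M55. The groups did not overlap, and M49 stood 0.45 above M47 (difference 0.62, SE 0.24, 1.54-fold, limma adjusted p = 0.520). The gene was called without M47 (0.85) and without M30 (0.77) but not without M49 (0.40) or without M55 (0.48). Col6a1 (0.19), Col6a2 (0.25) and Col6a3 (0.26), the chains of classical type VI filaments, were not called. Of these Col6a1 alone did not overlap between genotypes, and Col6a2 was called without M55 (0.76) and below 0 without M30 (-0.26), being 4.62 in M30 and 5.64 in M55. Col6a5, which lies beside Col6a6, had a difference of -0.26, and Col6a4 one of 0.12. Col28a1, a relative of the type VI chains, was 6.87 in M47 and 7.28 in M49, against 7.05 in M30 and 6.81 in M55, with overlapping groups.

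The FACIT collagens leaned the other way, with a median difference of -0.15, 7 of 9 genes below 0 and 0 called (against 6.62% of all clusters). In 33.3% of the class the genotypes did not overlap, against 39.7% of all clusters. The 3 type IX chains, known from the surface of cartilage fibrils, were all below 0 (Col9a1 -0.28, Col9a2 -0.21 and Col9a3 -0.20). For Col9a1 and Col9a3 both Nfkbiz-/- mice were lower than both Nfkbiz+/+ mice. The gap of Col9a1 was narrow, with 5.401 in M47 and 5.382 in M49 against 5.950 in M30 and 5.402 in M55. Without M30 the differences were -0.01 for Col9a1, 0.03 for Col9a2 and -0.12 for Col9a3. Col22a1, a collagen of tissue junctions such as those of muscle and tendon, was 6.93 in M47 and 6.99 in M49, beside 6.74 in M30 and 6.70 in M55. It was the 1 FACIT gene with both knockout values above the wild-type values (difference 0.24, SE 0.20). The part of muscle in its values was not tested. Col12a1 (-0.15) and Col14a1 (-0.22), which coat the fibrils of soft connective tissue, overlapped between genotypes, and so did Col16a1 (0.05), Col19a1 (-0.07) and Col20a1 (-0.02).

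Of the remaining classes, none had a called gene, where 6.62% of all clusters were called. Col13a1, a transmembrane collagen of cell adhesion sites, was 6.77 in M47 and 6.73 in M49, and 7.13 in M30 and 6.70 in M55, with M30 the high mouse. Col17a1, the hemidesmosome collagen of basal epithelial cells, had higher values in both Nfkbiz-/- mice (difference 0.41, SE 0.22, limma adjusted p = 0.628). Of 8 basal and squamous epithelial markers 0 were called (against 6.62% of all clusters), with differences from -0.39 to 0.58. The genotypes did not overlap for 37.5% of these markers, all higher in Nfkbiz-/- mice, against 39.7% of all clusters. Col23a1 had a difference of 0.13 that became 0.68 and called without M30 and -0.41 without M55, being 5.92 in M30 and 4.83 in M55. Col18a1, a multiplexin of basement membranes whose cleavage gives endostatin, was 5.75, 5.75, 6.01 and 5.80 in M47, M49, M30 and M55. Col7a1, the anchoring fibril under squamous epithelia, was 6.40, 6.45, 6.82 and 6.38. The Nfkbiz-/- values were the lower ones for Col18a1, whereas the groups overlapped for Col7a1. They also overlapped for Col25a1 (-0.28), Col15a1 (0.01) and Col26a1 (-0.14). The class medians were -0.01 for the 4 transmembrane genes, -0.07 for the 2 multiplexins and -0.16 for Col7a1 with Col26a1.

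Side by side, the class medians therefore ran from -0.16 to 0.19, and the classes named in most accounts of the matrix were at -0.03 (fibrillar), -0.06 (basement membrane), -0.15 (network) and -0.15 (FACIT). No test was run between classes. The medians also moved with single mice. The fibrillar median lay between -0.07 without M49 and 0.07 without M30, and the basement membrane median was -0.15 without M47. Without M30 the FACIT median became -0.01 and that of all collagens 0.04, the network median was -0.28 without M30 and -0.45 without M55, and the beaded filament median was 0.31 without M47 and 0.03 without M55.

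The collagen values of single mice were compared next. M30 was the highest of the 4 mice for 19 collagens (43.2%), M49 for 11 (25%) and M47 and M55 for 7 each (15.9%), whereas M30 was the highest for 27.9% of all clusters. The mean deviation of the network genes from their own mean was -0.22 in M47 and -0.01 in M49, against 0.20 in M30 and 0.03 in M55. That of the FACIT genes was -0.11, 0.02, 0.14 and -0.04. That of the fibrillar genes stayed within 0.07 of 0 in every mouse. M47 and M30 were thus the extremes of the network and FACIT classes, with the other mouse of each genotype nearer to 0. The typical distance between 2 mice of 1 genotype was a median of 0.13 for the Nfkbiz-/- and 0.26 for the Nfkbiz+/+ mice over the collagens, and 0.21 and 0.27 over all clusters.

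**Figure D3:**
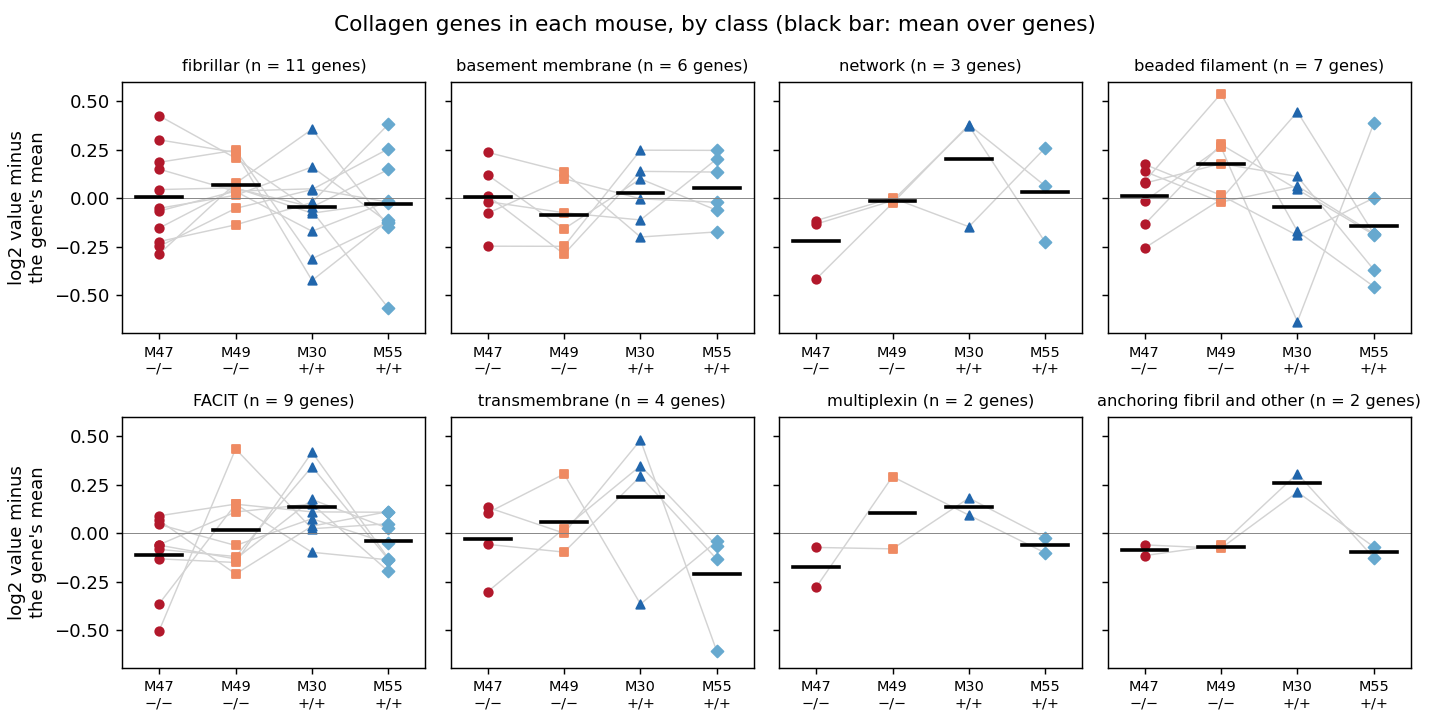
Deviation of each collagen gene from its own mean over the 4 mice (log2 units), by structural class and by mouse, with the class means marked. M30 lies highest in the network class (0.20) and the FACIT class (0.14), and the fibrillar means stay within 0.07 of 0.

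Chains that assemble into 1 protein were set against each other within each mouse for 9 pairs, chosen after their values were seen. The log2 ratio of Col4a5 to Col4a6, taken from its mean over the mice, was 0.48 in M47 and 0.38 in M49, against -0.45 in M30 and -0.42 in M55. Its genotypes were the farthest apart of the 9 pairs, a change of 0.87. The log2 ratio of Col1a2 to Col1a1 was 0.37 in M47 and 0.20 in M49, against -0.47 in M30 and -0.09 in M55, a change of 0.57, and that of Col5a2 to Col5a1 changed by 0.45. The Col4a2 to Col4a1 ratio overlapped between genotypes (change -0.12), as did the ratios within types VI, VIII and XI. The genotypes did not overlap for 4 of the 9 ratios, the remaining one being Col9a2 to Col9a1 with a change of 0.08. For single clusters of the array the share without overlap was 39.7%, and no share was taken over other ratios. With 2 mice against 2 the exact two-sided permutation test cannot go below p = 0.333, which those 4 reached, so none could pass a threshold of 0.05.

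**Figure D4:**
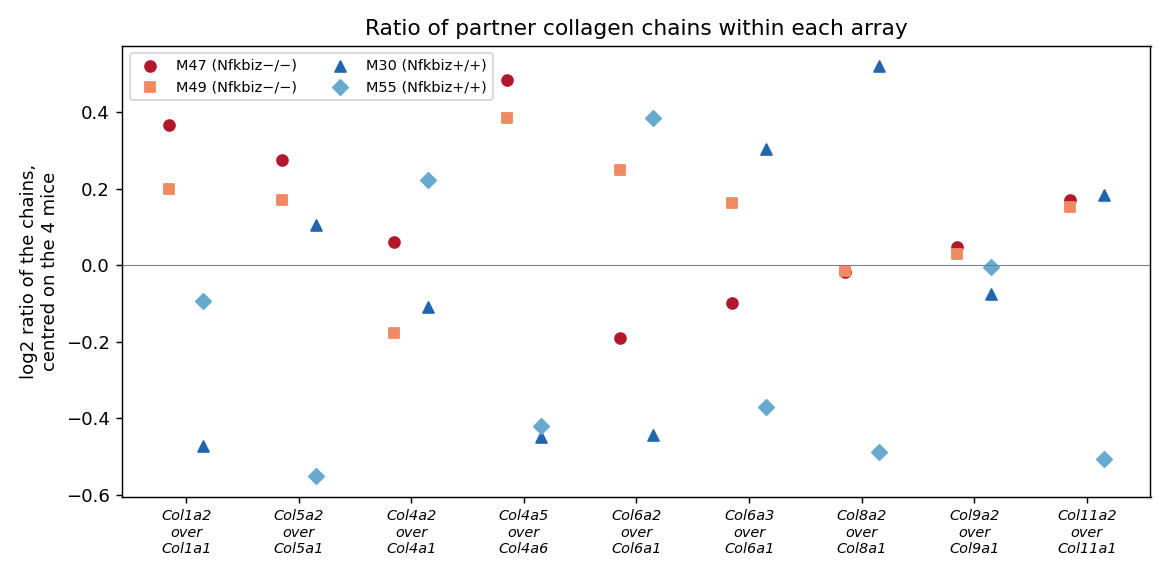
Log2 ratio of 2 chains of 1 collagen type, centred on the mean over the mice (y axis), for 9 chain pairs (x axis), with 1 point per mouse. The Col4a5 to Col4a6 ratio separates the genotypes, at 0.48 and 0.38 against -0.45 and -0.42, while Col4a2 to Col4a1 overlaps.

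Many collagen genes lie beside each other, and neighbours were read in the same and in opposite directions. Within 500 kb of each other lay 10 pairs of neighbouring collagens with 18 genes, and 5 of the pairs had differences of the same sign. Col3a1 and Col5a2 lie tail to tail on chromosome 1 at a distance of 24.6 kb and had differences of 0.43 and 0.63. Of the 3 head to head pairs of type IV genes, Col4a3 with Col4a4 had the same sign, whereas Col4a1 with Col4a2 and Col4a5 with Col4a6 did not. Col6a6 and Col6a5 are 28.0 kb apart on chromosome 9 and differed by 0.62 and -0.26.

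The genes that fold, trim, cross-link, degrade and sense collagen were read in the same way. Of 21 folding and modification genes, 0 were called higher and 1 lower (4.76%, against 6.62% of all clusters), with a median of 0.05. The called gene, Fkbp14, a prolyl isomerase of the endoplasmic reticulum, had a difference of -0.90 (SE 0.30, limma adjusted p = 0.480) and was not called without M49 (-0.81) or M55 (-0.47). The others with the largest statistics were P4ha1 (0.39), a subunit of prolyl 4-hydroxylase, Colgalt2 (-0.55), a collagen galactosyltransferase that was dim on all 4 arrays, and P3h4 (-0.32), a partner of lysyl hydroxylase, none of them called.

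In the 13 genes of procollagen cleavage and cross-linking, 1 was called higher and 2 lower (23.1% of the list, against 6.62% of all clusters). Lox, the lysyl oxidase that cross-links collagen and elastin, was 4.87 in M47 and 4.62 in M49, against 5.91 in M30 and 5.40 in M55. Tll1, a protease of the BMP1 family that removes the C-terminal end of procollagen, was 5.41 and 5.68 against 6.42 and 6.47. Both were lower in both Nfkbiz-/- mice, with a difference of -0.91 for Lox (SE 0.25) and -0.90 for Tll1 (SE 0.21), each with a limma adjusted p of 0.468, and both were still called when any 1 mouse was left out. Bmp1 itself was not called (-0.35). Pcolce, a glycoprotein that enhances this cleavage, was 6.70 in M47 and 6.46 in M49, compared with 5.87 in M30 and 6.07 in M55. It was higher in both Nfkbiz-/- mice (0.61, SE 0.21, limma adjusted p = 0.498), but was not called without M47 (0.49) or without M30 (0.51).

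The 13 genes of collagen breakdown and its inhibitors had a median of 0.18, with 0 called higher and 1 lower (7.69%, against 6.62% of all clusters). That was Mmp8, the neutrophil collagenase, which lay below the lower quartile of the signal on all 4 arrays, so little can be read from its call (-0.79, SE 0.32, limma adjusted p = 0.526), not called without M49 (-0.57) or M30 (-0.36). Timp3, a matrix-bound inhibitor of metalloproteinases, had a difference of 0.62 and was called only when M55 was left out (1.01). Fap (0.45), a protease of activated fibroblasts, and Mmp14 (0.34), a membrane-bound collagenase, were not called. Among 9 collagen receptors, 2 were called higher and 0 lower (22.2%, against 6.62% of all clusters), with a median of 0.07. Without M30 it was 0 of the 9. Lair1, an inhibitory receptor of leukocytes, was 3.43 in M47 and 4.02 in M49, against 2.05 in M30 and 3.13 in M55. Lair1 lay above the lower quartile of the signal in M49 alone, so most of its values were dim. Its groups did not overlap (difference 1.13, SE 0.37, limma adjusted p = 0.478), and it was not called without M49 (0.83) or without M30 (0.59). Itga2, the alpha subunit of a collagen-binding integrin of epithelium and platelets, was higher by 0.69 (SE 0.26, limma adjusted p = 0.511) and was not called without M47 (0.53) or M30 (0.41). The collagen-binding receptor kinases Ddr1 (0.54) and Ddr2 (-0.43) were not called.

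**Figure D5:**
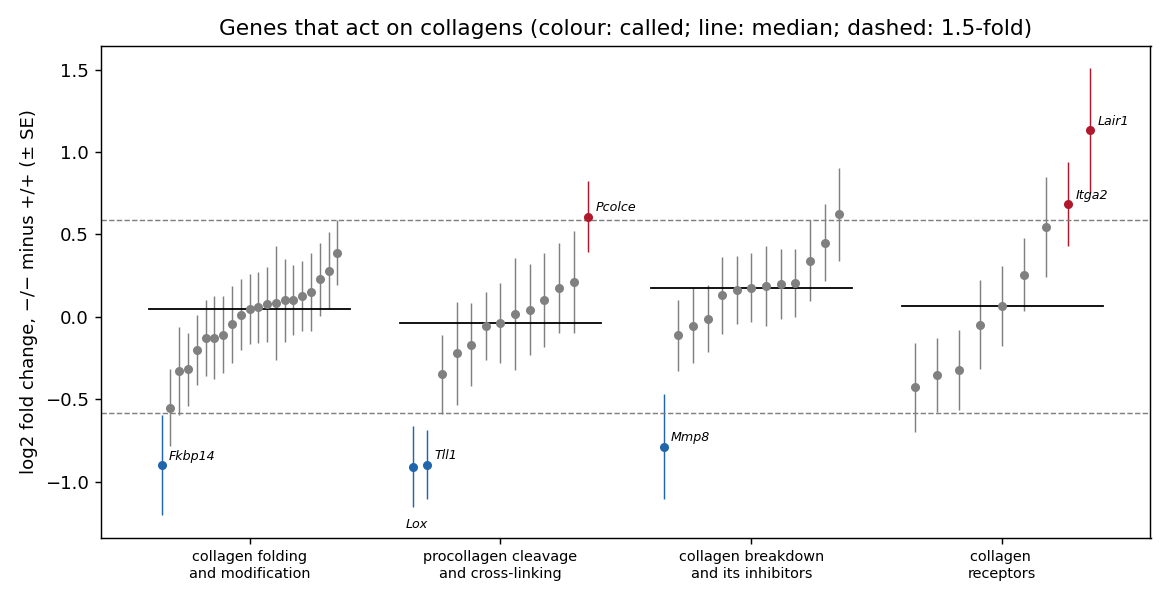
Log2 difference (Nfkbiz-/- minus Nfkbiz+/+) of the genes of 4 collagen pathway lists, with 1 point per gene, bars for 1 SE on either side, black lines at the list medians, dashed lines at 1.5-fold, and the called genes coloured and named. Lox (-0.91), Tll1 (-0.90) and Fkbp14 (-0.90) lie lowest, and Lair1 (1.13) lies highest.

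The main source of fibrillar collagen, the fibroblast, was read from 10 markers, of which 0 were called higher and 1 lower (10%, against 6.62% of all clusters). This was Tcf21 (-0.66), not called without M47 (-0.55). Vim (0.57), Pdgfra (0.41), Pi16 (0.39) and Pdgfrb (0.26) were higher in both Nfkbiz-/- mice, none of them called. The groups did not overlap for 5 of the 10 markers, 4 higher and 1 lower (50%, against 39.7% of all clusters). The median difference of the 10 markers was 0.08. The log2 of their summed signal was 9.29 in M47 and 9.53 in M49, against 9.16 in M30 and 9.81 in M55. The sum thus overlapped between genotypes and was lowest in M30, the mouse in which Col1a2 and Col3a1 were also lowest, and the part of fibroblast number in those values was not tested. For endothelium, myoepithelium with smooth muscle, and nerve, 0 markers were called in either direction (8, 7 and 6 genes), against 6.62% of all clusters.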

How the data were processed

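The authors labelled salivary gland RNA of 4 mice with the WT PLUS kit and hybridised 1 whole-transcript array per mouse. They deposited gene-level RMA values in log2 units (0.904 to 13.3), which stand in 2 tables without a difference. The authors' fold changes, p-values, lists of changed genes and GO and KEGG counts were not used. The sources used here do not give the annotation release. All 44 collagens lay on the chromosome of their RefSeq gene (GRCm38.p6).

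Groups were taken from the labels. The genotypes were compared in R 4.3.3 with limma 3.58.1 (lmFit, then eBayes, with 2 residual and 5.53 prior degrees of freedom, Benjamini-Hochberg adjustment over 22206 clusters). A gene was called at 1.5-fold or more with an unadjusted p under 0.05. The methods name independent t-tests, which were run with equal and unequal variances. Each array was 1 mouse, and precision is limited by how few arrays there are. The steps were tested on simulated data. Other normalizations, a filter on dim clusters, a 2-fold threshold and leaving out each mouse were tried. Where 1 mouse of a genotype was left, it was assumed to vary like the other genotype.

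The collagens and all lists were chosen with earlier results of these data known. Every collagen could be named, with values per mouse for called genes, type IV chains and the gene of highest mean in each class, and from pathway lists the called genes and up to 4 with the largest statistics. Values per mouse of other collagens, the promoter windows and the chain pairs were chosen after their values were seen.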

Additional observations from a re-analysis of the deposited data

How the results depend on the processing

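With 2 mice per genotype the calls of single collagens were fragile. The 2 collagens called higher became 0 under the t-test with equal variances, 0 with unequal variances, 0 when the test was run over clusters above the median signal (which hold neither Col5a2 nor Col6a6) and 0 at a 2-fold threshold. Leaving out each mouse gave 0 to 3 collagens higher. No collagen was called lower under any of these alternatives. The intensity trend, a repeated quantile normalization and centring on the array median gave 2. So did 1 cluster per gene and the second deposited table, which leave every collagen difference unchanged and so are no separate check. Of 603 values of single genes under alternatives, 28 changed sign. None of these values belonged to a gene called in the main fit or under that alternative. Col6a2 without M30 (-0.26, beside 0.25 in the main fit) and Col23a1 without M55 (-0.41, beside 0.13) were among the values that changed sign. Many of the 603 could not change sign. The t-tests, the intensity trend, the 2-fold threshold, the filter on dim clusters, 1 cluster per gene and the second table keep each estimate.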
